A study of Homo sapiens with 2 samples.

Results

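The genes described here are 36 loci that are recurrently mutated, deleted or amplified in pancreatic ductal adenocarcinoma, out of 19866 protein-coding genes on the chromosomes. They were taken from a list of driver genes by a rule that uses no measured value. The list, the roles and the rules were chosen with earlier results of these data known. The 36 genes comprise 25 tumour suppressor genes and 11 oncogenes. A summit, the position of highest signal in a called peak, was counted at a gene when it lay in the gene body or within 5 kb of it, and the number of summits within 2.5 Mb of the gene gave a view of the surrounding segment. Chromatin immunoprecipitation with sequencing was made from AsPC1 cells, an established line of human pancreatic ductal adenocarcinoma. Formaldehyde-fixed, sonicated chromatin was precipitated with an antibody against NUSAP1 in 1 library, and chromatin without antibody (input) was sequenced in a further one. The labels name no treatment, genotype change or time point, and both libraries come from the same single line. Only the peak list of the precipitate was used, so every value below describes 1 library with no replicate.

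NUSAP1 is a nucleolar and spindle-associated protein that binds microtubules and chromatin around mitosis, and it is not known as a sequence-specific transcription factor. Most of the tumour suppressors act in a few systems. SMAD4 with the TGF-beta and activin receptors relays a growth-restraining signal, the CDKN2A and CDKN2B products block the cyclin D kinases, the SWI/SNF and COMPASS complexes remodel and methylate chromatin, and ATM, BRCA1, BRCA2 and PALB2 serve DNA double-strand break repair. The oncogenes include kinases (BRAF, AKT2, ERBB2, FGFR1, CDK6), the signalling G protein gene GNAS, the cyclin gene CCND1, the splicing factor genes SF3B1 and U2AF1, and the transcription factor genes MYC and GATA6.

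NUSAP1 summits lay at 7 of the 36 driver genes (19.4%), against 15.6% of all protein-coding genes, and 29 driver genes had none. The 7 were the suppressor genes KMT2C, KMT2D, ATM, BRCA1 and RREB1 and the oncogenes BRAF and CCND1. KMT2C held 2 summits and the others 1 each, which makes 8 in all. None of the 36 had a summit with a q under 0.05 from the authors' peak caller, where 0.221% of protein-coding genes had one, a share that corresponds to 0.0797 of 36 genes. The 8 summits are peaks that the caller listed, but none passes this q limit, which was set here. At the share of all genes, fewer than 1 driver gene would hold a summit that passes it.

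Long genes hold more summits, and the driver genes are long, with a median length of 76.0 kb against 24.5 kb for all protein-coding genes. Among protein-coding genes whose length differed from that of each driver gene by a ratio of at most 5 to 4, the mean shares added up to 8.54 genes with a summit and the mean counts to 12.1 summits. The 7 genes and 8 summits observed were below both values. The summits per Mb in each gene's own segment, with the gene left out, gave 11.3 summits for the length of the 36 genes. By length class, 1 of 4 driver genes under 20 kb had a summit (6.04% of all protein-coding genes of that class), 1 of 8 between 20 and 50 kb (12.0%), 3 of 8 between 100 and 200 kb (32.4%) and 2 of 5 of 200 kb or more (56.8%). None of the 11 driver genes between 50 and 100 kb had one, where the class share of 19.5% corresponds to 2.14 genes. With 1 library no test was made of these counts.

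**Figure D1:**
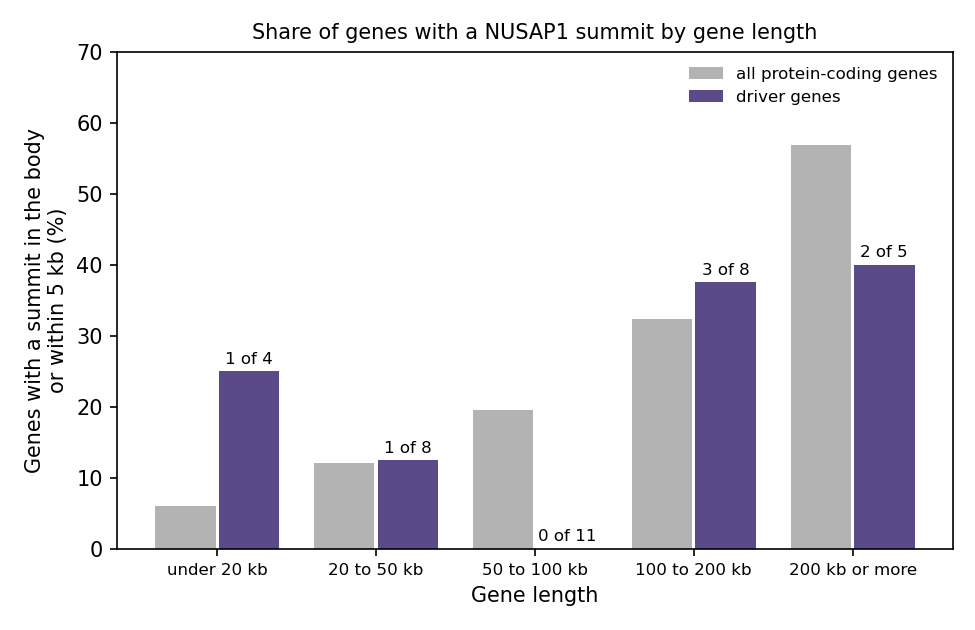
Percentage of genes with a summit, counted in the body or up to 5 kb away, by gene length, for all protein-coding genes (grey) and the 36 driver genes (purple, with counts above the bars). The share of all genes rises from 6.04% to 56.8% with length, and no driver gene between 50 and 100 kb has a summit.

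The 8 summits rested on few fragments. Fold enrichment at the summit, as given by the authors' caller, ran from 2.74 to 3.51 with a median of 2.89, against 3.01 for the whole list (quartiles 2.74 and 3.51). The number of precipitated fragments worked out at each summit was 4 for 3 summits, 5 for 3 summits, and 6 and 7 for the remaining ones. In the list as a whole 87.8% of the 9043 summits had 4 to 6 fragments and 1.48% had a q under 0.05. The smallest q at a driver gene was 0.779.

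**Figure D2:**
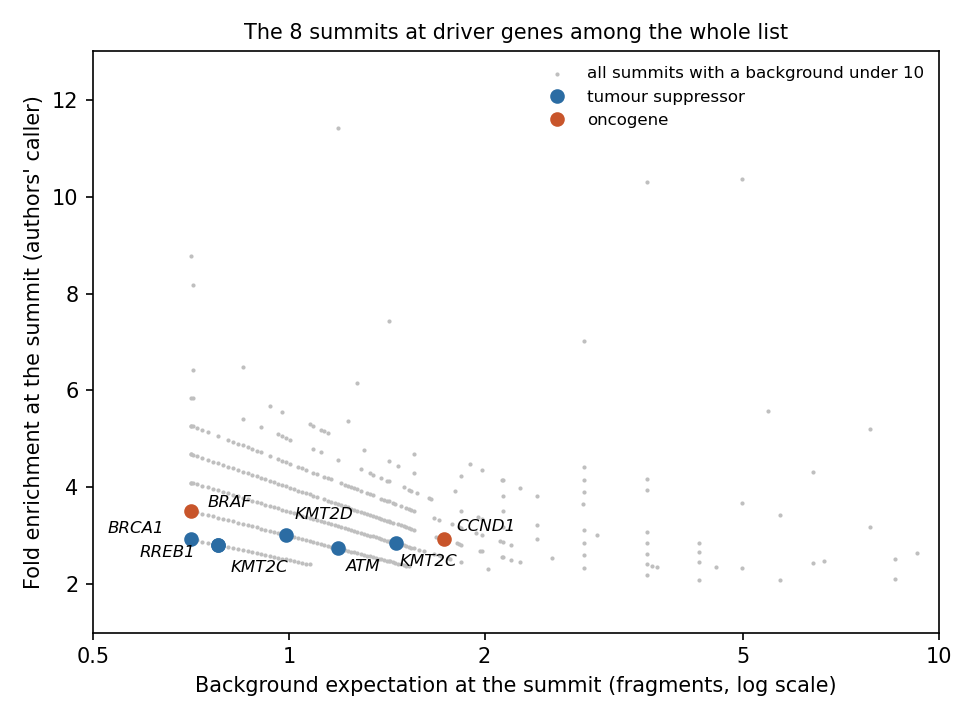
Fold enrichment against the background expectation of the caller (fragments, log axis) for the summits at driver genes, coloured by role, and for all summits with a background under 10 fragments (grey). The 8 driver summits lie at folds of 2.74 to 3.51 within the dense lower bands of the list. Those of RREB1 and 1 of KMT2C coincide.

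KMT2C and KMT2D, of the COMPASS family, encode the methyltransferases that place histone H3 lysine 4 monomethylation at enhancers. Both held a summit, against 0.66 of the 2 genes from similar length. KMT2C (gene ID 58508, chromosome 7, 152134925 to 152436003, hg38) was the sole driver gene with more than 1 summit. One lay at 152282178 with a fold enrichment of 2.81 (q 1, 4 fragments over an expected 0.779), and another at 152402286 with 2.85 (q 0.975, 6 fragments over 1.46). A further summit stood 16.6 kb beyond the upper end of the gene, upstream of the annotated start at 152436003, with 3.46-fold enrichment and q 0.779. It was too far away to be counted at the gene. KMT2C lay in one of the poorest segments, with 5 summits in 5.30 Mb, so 2 of the 5 fell in a gene where the rest of the segment gave an expected 0.187. Protein-coding genes of similar length held a mean of 0.961 summits. This locus was singled out after its values were seen.

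The KMT2D summit at 49018054 on chromosome 12 lay 924 bp beneath the lower gene boundary (gene ID 8085, 49018978 to 49060794). KMT2D is on the minus strand, so this is the side of the 3′ end, 42.7 kb from its start. The position is inside PRKAG1, which encodes a subunit of the AMP-activated kinase, and DDN-AS1. It had a fold enrichment of 3.01 (q 0.914) on 5 fragments, and it was the single driver summit that lay outside the gene body.

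Of the 4 DNA repair genes, the damage-signalling kinase gene ATM and the homologous recombination gene BRCA1 held 1 summit each and BRCA2 and PALB2 had none, against 1.0 gene from similar length. The ATM summit, at 108318084 on chromosome 11, was 95 kb into the gene (gene ID 472, 108223067 to 108369102), where the gene C11orf65 overlaps it. Its 2.74-fold enrichment was the lowest of the 8, with q 1 on 5 fragments over 1.19. The BRCA1 summit, at 43153724 on chromosome 17, had 2.93-fold enrichment and q 1 on 4 fragments. It counts for BRCA1 because the gene table carries a long gene model (gene ID 672, 43044295 to 43170327). Of the 2 annotated BRCA1 starts, at 43125364 and 43170327, the summit is 28.4 kb upstream of the first and 16.6 kb downstream of the second. With BRCA1 ended at the first start, the count was 6 driver genes, 4 of them suppressors. The nearest summits of BRCA2, a homologous recombination gene, and of PALB2, whose product links BRCA2 to BRCA1, were 693 kb and 103 kb away, with fold enrichments of 4.32 (q 0.186) and 3.51 (q 0.779).

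Among the 5 cell cycle genes, CCND1 alone held a summit, against 1.14 from similar length. CCND1 encodes cyclin D1, the partner of the kinases CDK4 and CDK6. Its summit at 69643066 on chromosome 11 was 1.91 kb above the lower end of the gene (gene ID 595, 69641156 to 69654474). It had the most fragments of the 8, 7 over an expected 1.73, 2.93-fold enrichment and q 0.779, and it was the sole driver summit left when 7 or more fragments were required. At that limit 2.77% of all protein-coding genes had a summit. CCND1 is 13.3 kb long, and 7.42% of genes of similar length had a summit. CDK6, at 232 kb, had none, and its nearest summit was 613 kb above the gene. The CDK inhibitor genes CDKN2A and CDKN2B, which lie next to each other on chromosome 9, shared a single nearest summit at 21449428, 518 kb and 553 kb away (fold enrichment 2.51, q 1). FBXW7, whose ubiquitin ligase product marks cyclin E and MYC for degradation, had its nearest summit 549 kb above the gene.

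BRAF was the sole holder of a summit among the 8 signalling genes, against 1.72 from similar length. This RAF kinase gene (gene ID 673, chromosome 7, 140713328 to 140924929) had its summit at 140738836, 25.5 kb above the lower end and 185 kb downstream of its start. Its 3.51-fold enrichment was the highest of the 8, with q 0.779 on 5 fragments over the lowest background of the list, 0.708. The receptor kinase gene FGFR1 had a summit 35.0 kb below it, inside NSD3 (3.51, q 0.779), and the energy-sensing kinase gene STK11 had one 26.0 kb above it (3.49, q 0.753). The nearest summits of GNAS, ERBB2 and the MAP kinase kinase kinase gene MAP3K1 were 14.4, 115 and 150 kb away. Those of MAP2K4, a stress-pathway MAP kinase kinase gene, and AKT2, a kinase gene of PI3K signalling, were 702 and 986 kb away.

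RREB1, a zinc finger factor that acts with SMAD proteins, held a summit at 7241602 on chromosome 6, 10.4 kb below the upper end of the gene (gene ID 6239, 7107743 to 7251980). It was enriched 2.81-fold (q 1), on 4 fragments. MYC and the lineage factor gene GATA6 had none, and their nearest summits were 185 and 769 kb below them. No summit lay at either of the splicing factor genes, where SF3B1 had one 75 kb below it and U2AF1 one 471 kb above it.

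None of the 6 TGF-beta and activin genes and none of the 5 SWI/SNF genes held a summit, nor did RNF43, which encodes a ubiquitin ligase that removes WNT receptors. Protein-coding genes of similar length gave 1.26 of the 6 and 1.83 of the 5, so each absence is a shortfall of fewer than 2 genes. ACVR1B, an activin type I receptor gene, came nearest with a summit 14.4 kb above it (3.24, q 0.779). For the receptor genes ACVR2A and TGFBR2 the distance was 36 and 40.8 kb, and for SMAD4, SMAD3 and TGFBR1 it was 242, 250 and 409 kb. Of the SWI/SNF genes, ARID2 had its nearest summit 115 kb away, PBRM1 223 kb, ARID1B 240 kb, ARID1A 380 kb and the ATPase gene SMARCA4 540 kb. ARID1B spans 435 kb, a length at which 61.8% of protein-coding genes held a summit and its own segment gave an expected 1.87. RNF43 had its nearest summit 215 kb below it. Over all 36 genes, 13 (36.1%) had a summit within 50 kb, against 33.7% of protein-coding genes, and 9 (25%) had none within 500 kb, against 15.2%. Distances run from the gene ends and summits inside a gene are included, and these shares were not matched for gene length. The 9 include CDKN2A and CDKN2B, which have the same nearest summit.

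No peak lay at the start of a driver gene for which a start was at hand. The RefSeq promoter table (GRCh38.p14) held 62 starts of 31 driver genes, without ARID2, CCND1, FGFR1, MAP3K1 and MYC. None of the 31 genes had a summit within 1 kb of a start, where 2.07% of protein-coding genes had one, a share that corresponds to 0.642 of 31 genes. The closest approach among the 31 was 14.4 kb, at GNAS. CCND1, with its summit 1.91 kb from the lower gene end, is not among them. In the driver segments, 9 of 1490 protein-coding genes (0.604%) had a summit inside the window from 250 bases before to 50 bases after a start, against 0.663% of all 15843 with a start in the table. The promoters with the most fragments among these were shared by INTS14 with SLC24A1, 11 fragments in the segment of SMAD3, and next that of MECR, 8 fragments in the segment of ARID1A. INTS14 encodes a subunit of the Integrator complex, which processes small nuclear RNAs, and MECR an enzyme of mitochondrial fatty acid synthesis. One gene of the pathway lists described below, SF3A3, also had a summit in its promoter window. It encodes a subunit of the splicing factor complex that works beside SF3B1.

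Of the 10 promoters with a summit in the window, 9 in the driver segments and that of SF3A3, 4 are shown. They are SF3A3 and, chosen after their values were seen, 1 promoter for each of the 3 summits with the most fragments in the driver segments. The third is that of HEMK1, a methyltransferase gene in the segment of PBRM1. Capitals mark the summit base and 25 bases on either side, and each is written on the strand of its gene from RefSeq.
SF3A3 (chr1:37989973-37990272, minus strand): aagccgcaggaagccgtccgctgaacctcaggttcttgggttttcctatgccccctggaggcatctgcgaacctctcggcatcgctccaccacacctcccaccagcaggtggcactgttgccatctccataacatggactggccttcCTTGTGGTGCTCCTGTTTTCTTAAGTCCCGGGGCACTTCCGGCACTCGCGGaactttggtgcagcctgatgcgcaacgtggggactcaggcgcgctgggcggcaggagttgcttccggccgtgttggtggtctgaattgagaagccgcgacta
INTS14 (chr15:65611082-65611381, minus strand): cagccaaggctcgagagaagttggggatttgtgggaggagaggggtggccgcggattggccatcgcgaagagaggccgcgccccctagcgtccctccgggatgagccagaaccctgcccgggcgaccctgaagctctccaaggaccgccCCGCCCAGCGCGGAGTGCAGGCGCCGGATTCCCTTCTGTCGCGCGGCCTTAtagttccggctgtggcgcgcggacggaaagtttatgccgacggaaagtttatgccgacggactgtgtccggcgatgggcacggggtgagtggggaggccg
MECR (chr1:29230885-29231184, minus strand): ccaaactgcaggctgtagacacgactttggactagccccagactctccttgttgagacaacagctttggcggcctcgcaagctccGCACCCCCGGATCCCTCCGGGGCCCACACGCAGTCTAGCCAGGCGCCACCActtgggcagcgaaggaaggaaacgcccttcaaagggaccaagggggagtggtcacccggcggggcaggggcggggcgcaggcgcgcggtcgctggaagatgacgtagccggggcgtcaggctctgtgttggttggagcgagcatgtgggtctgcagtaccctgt
HEMK1 (chr3:50569272-50569571, plus strand): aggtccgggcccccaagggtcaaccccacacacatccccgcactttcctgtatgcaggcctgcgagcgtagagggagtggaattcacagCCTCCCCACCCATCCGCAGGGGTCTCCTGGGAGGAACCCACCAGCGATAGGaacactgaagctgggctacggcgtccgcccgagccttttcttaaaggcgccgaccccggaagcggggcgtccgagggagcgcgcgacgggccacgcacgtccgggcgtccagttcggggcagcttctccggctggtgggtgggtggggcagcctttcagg
The summits lay 78, 76, 140 and 136 bases upstream of the starts of SF3A3, INTS14, MECR and HEMK1. Their fold enrichments were 4.36 (q 0.126), 3.83 (q 0.166), 3.71 (q 0.418) and 3.31 (q 0.779), on 8, 11, 8 and 7 fragments. The INTS14 summit stood on the highest background of the 4, 2.14 fragments. The letters held 60.7% G and C and 19 CpG for SF3A3, 67.3% and 33 for INTS14, 65.3% and 22 for MECR, and 67.7% and 26 for HEMK1. Over the 10 promoters the median was 67.5% (60.7% to 78.3%) with 29.5 CpG. Those of INTS14 and SLC24A1 overlap on opposite strands and share 1 summit, so they are not separate observations. Over all protein-coding promoters in the table the median was 62.3% with 21 CpG, and over the 62 driver promoters, which hold no summit, 64.2% with 25 CpG.

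The segments around the driver genes ranged from among the densest to among the sparsest of the list. Summits per Mb within 2.5 Mb ran from 7.39 at MYC to 0.198 at FGFR1, a ratio of 37.4, and had a median of 2.64, against 3.34 for all protein-coding genes (quartiles 1.19 and 4.77). MYC, with 37 summits (7.39 per Mb, 95% Poisson interval 5.20 to 10.2), was followed by RREB1 with 36 (7.0), SF3B1 with 33 (6.54), ATM with 30 (5.83) and CCND1 with 29 (5.78). The intervals cover counting error only, and those of these 5 overlap. The 5 were the driver genes above the upper quartile of protein-coding genes, and 96.1% of protein-coding genes had a lower value than MYC. The interval of MYC lay above those of 20 driver genes.

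The sparsest segments were those of FGFR1 with 1 summit (0.198 per Mb, 0.00501 to 1.1), CDKN2A and CDKN2B, which share 1, and GATA6 with 2 (0.397). KMT2C and CDK6 followed with 5 each, and 8 driver genes lay under the lower quartile. Only 3.18% of protein-coding genes had a lower value than FGFR1. Its interval lay below those of 19 driver genes. MYC and FGFR1 are on the same chromosome, 8, and ATM and CCND1 both on chromosome 11. Neighbouring driver genes are not separate observations: ARID2 and KMT2D share 12 summits, KMT2D and ACVR1B 5, and ERBB2 and BRCA1 2.

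**Figure D3:**
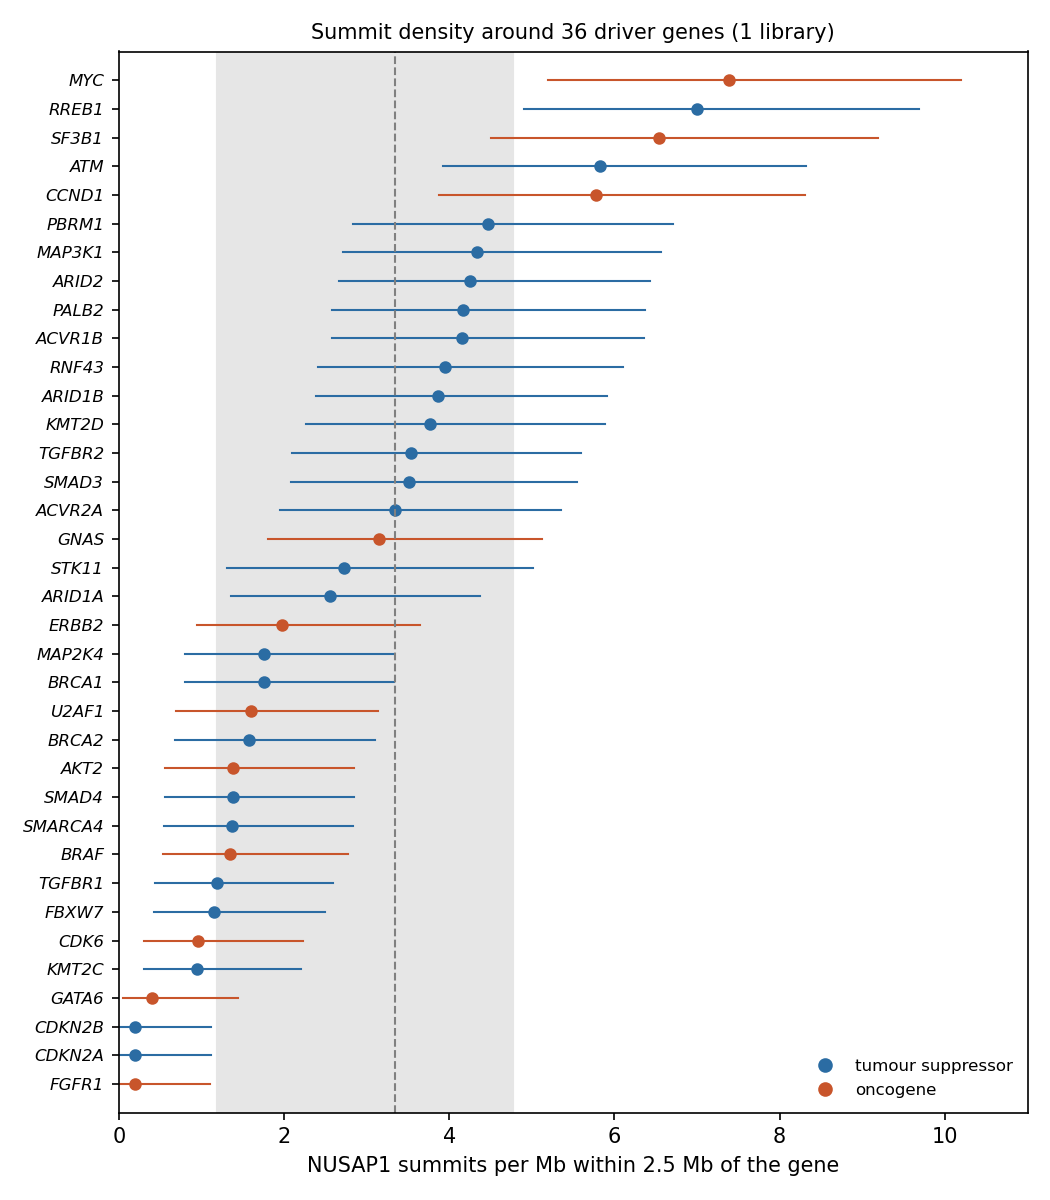
Summits per Mb within 2.5 Mb of each driver gene (points) with 95% Poisson intervals (lines, counting error only), coloured by role. The dashed line is the median of all protein-coding genes, 3.34, and the grey band their quartiles. MYC stands at 7.39 and FGFR1 at 0.198.

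Between these ends the order was gradual. PBRM1 (4.47 per Mb), MAP3K1 (4.33), ARID2 (4.25), PALB2 (4.17), ACVR1B (4.16), RNF43 (3.95), ARID1B (3.86), KMT2D (3.77), TGFBR2 (3.54), SMAD3 (3.51) and ACVR2A (3.34) had intervals that overlap one another. GNAS (3.15), STK11 (2.73), ARID1A (2.56) and ERBB2 (1.98) lay under the median of protein-coding genes. MAP2K4 and BRCA1 (1.76 each), U2AF1 (1.60), BRCA2 (1.57), AKT2 and SMAD4 (1.38 each), SMARCA4 (1.37), BRAF (1.34), TGFBR1 (1.19) and FBXW7 (1.15) followed, each with fewer than 10 summits. SMAD4, the common mediator of TGF-beta signalling and often deleted in this cancer, lay in a sparse stretch of chromosome 18 with 7 summits.

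Tumour suppressor genes and oncogenes held summits at similar shares. Summits lay at 5 of 25 suppressor genes (20%) and 2 of 11 oncogenes (18.2%), where genes of similar length gave 6.46 and 2.08. In summits, 6 were observed at the suppressor genes against 9.32 from genes of similar length and 9.63 from their segments. The oncogenes had 2, against 2.80 and 1.66. Segment densities had a median of 3.34 per Mb for the suppressor genes (quartiles 1.38 and 4.16, range 0.199 to 7.0) and of 1.60 for the oncogenes (quartiles 1.15 and 4.47, range 0.198 to 7.39). The ranges coincide almost wholly, and 13 of 25 suppressor genes and 3 of 11 oncogenes lay above the median of protein-coding genes. The size of the gap between the medians depended on the segment and on the summits counted. It was 2.36 against 1.93 within 1 Mb and 3.17 against 1.27 within 5 Mb. With summits of 6 or more fragments it was 0.786 against 0.765, with 7 or more 0.386 against 0.199, and with a fold enrichment of at least 4 it was 0.197 against 0.199.

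In some segments the summits were uneven about the gene, and in others they were nearly even. PBRM1 had 10 below and 13 above, and ARID1B 10 and 11. STK11 had 5 and 5, but its segment of 3.67 Mb is cut short on the lower side by the chromosome end. Its equal counts are therefore not over equal lengths. The unevenness was not tested, and the cases that follow were not drawn at random. At MYC 27 of the 37 lay below the gene and 10 above it, and 10 had 7 or more fragments. The one with the highest fold enrichment, 4.52 (q 0.0857), was 0.467 Mb below MYC in the long non-coding RNA gene CASC21. At U2AF1 1 of 8 lay below the gene, and at RNF43 15 of 20. At SF3B1 12 lay below and 21 above, with a highest fold enrichment of 3.87 (q 0.418) near LINC01923. At ATM the highest was 4.13 (q 0.166), in LINC02715. At CCND1 it was 4.19 (q 0.186), in SHANK2, and 9 of the 29 summits had 7 or more fragments. The 2 summits of GATA6, both below the gene, had fold enrichments of 4.13 (q 0.166) and 2.93 (q 1), and the one near CDKN2A and CDKN2B lay 4.84 kb from MIR31HG.

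**Figure D4:**
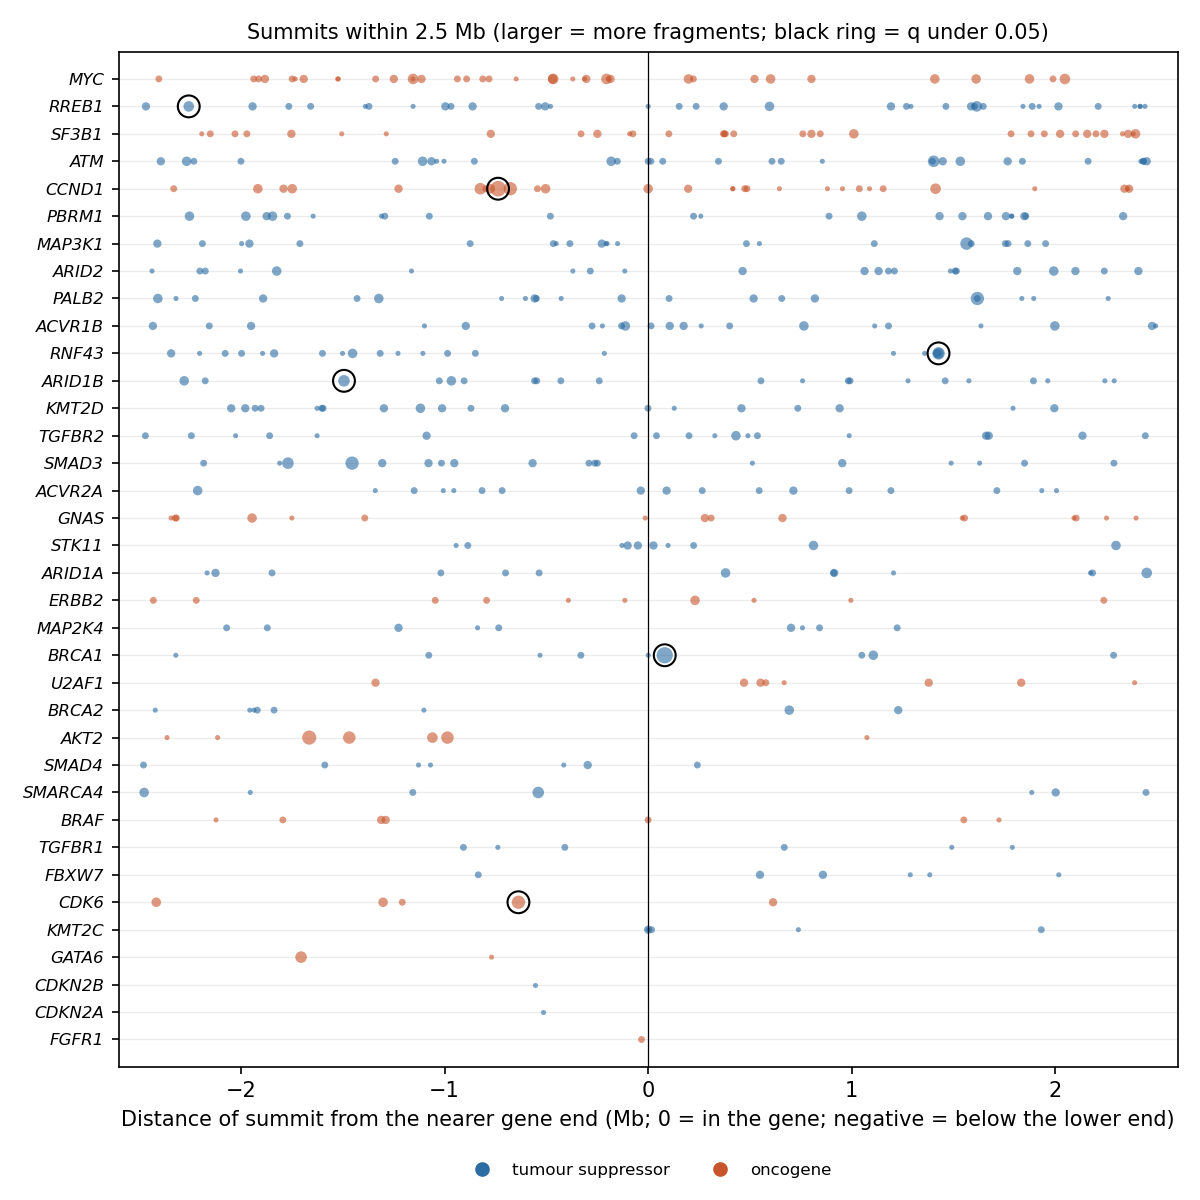
Each point is a summit within 2.5 Mb of a driver gene, by its distance from the nearer gene end in Mb (0 marks the gene), with larger points for more fragments and rings for a q under 0.05. MYC has 27 summits below and 10 above the gene, and the rows of CDKN2A, CDKN2B and FGFR1 hold 1 each.

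Together the segments held 505 summits, 71 of them with 7 or more fragments (14.1%, against 12.2% of the list) and 6 with a q under 0.05 (1.19%, against 1.48%). None of these 6 lay in a driver gene. The strongest was 0.637 Mb below CDK6 in AKAP9, which encodes an anchoring protein of the centrosome and Golgi, at 91967718 on chromosome 7. It was enriched 6.49-fold (q 3.74e-05) on 11 fragments over 0.850. The next, 0.0814 Mb above BRCA1 at 43251764 on chromosome 17, lay 65 bp from a small nuclear RNA gene (LOC124904138). It had 21 fragments over a raised background of 4.98, 3.68-fold enrichment and q 0.00315.

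The other 4 were 1.49 Mb from ARID1B in TFB1M, a mitochondrial ribosomal RNA methyltransferase gene (5.02, q 0.0144), 1.43 Mb from RNF43 beside VMP1 (4.78, q 0.0188), 2.26 Mb from RREB1 in the chromodomain gene CDYL (4.83, q 0.0396) and 0.737 Mb from CCND1 in IGHMBP2 (3.90, q 0.0406). The VMP1 summit, at 59843771 on chromosome 17, was 1.52 kb from that gene and 2434 bp from MIR21, a microRNA gene often highly expressed in carcinomas. The IGHMBP2 summit stood on a background of 2.85 fragments.

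At listed summits of 5 fragments, the background expectation of the caller was on the whole higher in the denser segments. Its median was 1.02 fragments in the segments of MYC and ATM, 0.991 at RREB1 and 1.19 at CCND1. It was 0.708 at SMAD4, 0.712 at TGFBR1 and 0.717 at BRCA1. Over the 24 segments with 3 or more such summits, Spearman's rho between density and this background was 0.53 and Pearson's r 0.54. Both measures come from the same summits of the same library, and some segments overlap, so this is a description. Listed summits of 5 fragments had backgrounds of 0.708 to 1.53 only. The median therefore describes called summits and not the background of the whole segment. BRAF combined a low density, 1.34 per Mb, with a background of 0.991 (from 3 summits), and SF3B1 a density of 6.54 per Mb with one of 0.850. Between density and protein-coding genes per Mb over the 36 segments rho was -0.11 and r -0.16. At AKT2, 3 of the 7 summits stood on backgrounds of 3.56 to 4.53 fragments, and none of the 7 had 5 fragments. The DNA copy number of these segments was not measured here, and its part in the densities was not tested.

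**Figure D5:**
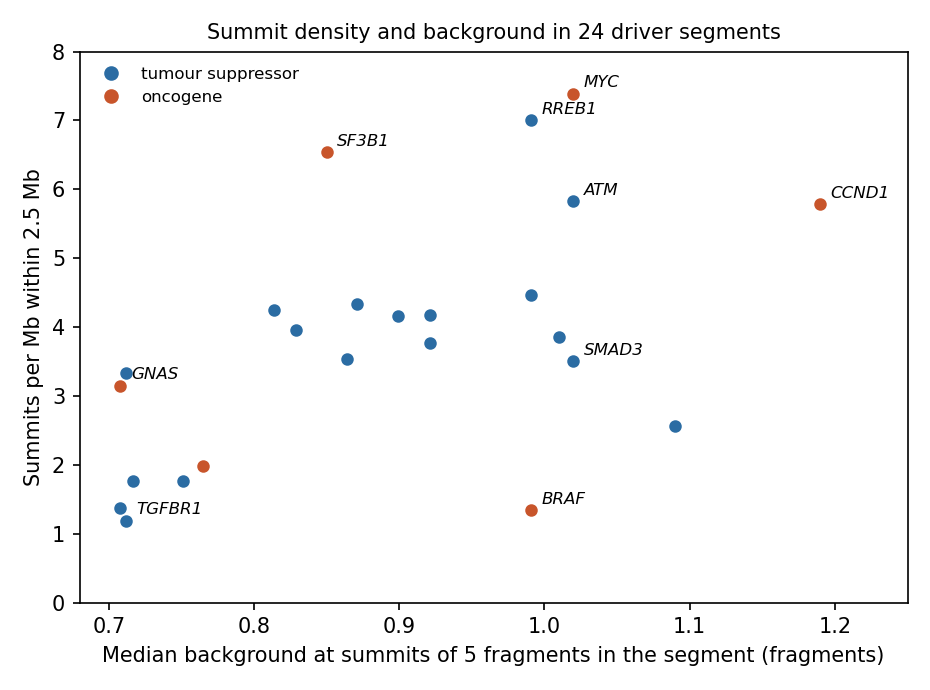
Summits per Mb against the median background expectation (fragments) at summits of 5 fragments, for the 24 driver segments with 3 or more such summits, coloured by role. CCND1 lies at 1.19 and MYC at 1.02, while SMAD4, TGFBR1 and BRCA1 lie between 0.708 and 0.717.

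The partners of the drivers in 10 pathway lists, 176 genes in all, held summits at about the share of the drivers. Summits lay at 35 of them (19.9%, against 15.6% of all protein-coding genes), where protein-coding genes of similar length gave 33.5. Of the 176, 1 gene had a summit with a q under 0.05, where 0.221% of all protein-coding genes had one. That gene was U2AF2, the partner of U2AF1 in recognising the 3′ splice site. Its summit at 55670532 on chromosome 19 had 15 fragments over a raised background of 2.85, 4.16-fold enrichment and q 0.0101. The splicing factors had summits at 3 of 15 genes against 1.34 from similar length, with SF3A3 and SF1 (3.45, q 0.693) beside U2AF2.

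The other TGF-beta and activin genes had summits at 8 of 23, against 5.44 from similar length. They were led by the receptor gene ACVR1C (4.09, q 0.418), the ubiquitin ligase gene SMURF2 (3.51, q 0.779) and the inhibitory SMAD6 (3.32, q 0.779). The 6 driver genes of the same pathway had none, against 1.26 from similar length. The DNA repair genes had 6 of 20, against 4.78. CHEK1, the checkpoint kinase gene, and RAD50, of the break-sensing complex, both stood at 3.62 (q 0.592), and the Fanconi gene FANCC at 3.51 (q 0.779).

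Receptor kinase and MAPK genes had 5 of 21, against 4.49, with the RAS-inhibitor gene NF1 at 4.17 (q 0.281), FGFR2 at 3.81 (q 0.418) and 5 summits in the 1160 kb of ERBB4, the highest at 3.51 (q 0.779). The COMPASS genes KMT2A, SETD1A and SETD1B made 3 of 12, against 1.97, with fold enrichments of 3.18, 2.77 and 2.62. WNT genes had 4 of 16, against 4.03, led by LRP5 (3.67, q 0.519), DVL1 (3.22, q 0.779) and LGR5 (3.08, q 0.779).

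WNT signalling was thus just under its value from similar length, and 4 more lists were below theirs. They were PI3K signalling, with PIK3CD and MTOR (2 of 15, against 4.12; 2.6 and 2.58, q 1), SWI/SNF, with BCL7C alone (1 of 20, against 3.48; 3.58, q 0.510), G1 cell cycle, with RBL1 and CCND3 (2 of 19, against 2.43; 3.35 and 3.28, q 0.779), and the pancreatic transcription factors, with FOXA2 alone (1 of 15, against 1.39; 2.49, q 1). These are descriptions of a single library, and no list was tested against chance.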

How the data were processed

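The authors' peak list of the NUSAP1 precipitate is in the narrowPeak layout. The submitters' processing notes list MACS2 2.1.0 as a tool, with Bowtie 1.1.2, Trimmomatic 0.33 and bcl2fastq 2.17, and the build hg38, while the caller settings and the control are not given in the sources used here. The deposited columns hold a display score, -log10 q, -log10 p, the fold enrichment (a ratio over background) and the summit offset in bp. The peak list gives no read totals, so library depth is unknown.

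Fragments and background at each summit were worked out from the Poisson -log10 p together with the fold, taken to be (fragments + 1) / (background + 1). All 9043 summits had a solution within 0.001, with a largest error of 0.000262. All of 500 simulated summits were recovered, but they were made with the same formula. That check covers the calculation only and cannot show that the caller used this formula. Genes came from RefSeq (GRCh38.p14, the same build as hg38), which held all 36 driver genes and all 176 list genes. Of its 59792 genes, 831 on unplaced or alternate sequences were left out, and exons were not given, so no summit is placed in an exon or intron. Positions count from 1. Segment density is the number of summits within 2.5 Mb of the gene ends, gene included, over that length, cut at the first and last gene or peak of a chromosome. Genes named: all 36 drivers, up to 3 genes per list by fold enrichment, and the gene nearest the highest-fold summit in the 5 densest and 3 sparsest segments. The genes of the promoters, of summits with q under 0.05 in the segments, and MIR21, C11orf65, PRKAG1 and DDN-AS1 were named after their values were seen. Members, roles, lists and rules were chosen with earlier results of these data known. Alternatives changed the distance, the summit limits, the segment and the length tolerance. Figures were drawn with matplotlib 3.10.9, and values computed in Python 3.11.15 using scipy 1.17.1, pandas 2.3.3 and numpy 2.4.6.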

Additional observations from a re-analysis of the deposited data

How the results depend on the processing

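Limits on the strength of a summit changed the counts most. With 6 or more fragments (3066 summits in the list) 2 driver genes held 2 summits, 1 of them a suppressor gene and 1 an oncogene, against 4.40 summits from genes of similar length and 3.49 from the segments, with median densities of 0.786 per Mb for suppressor genes and 0.765 for oncogenes and 14 pathway genes. With 7 or more (1102) 1 driver gene, an oncogene, held 1 summit (0 suppressor genes), against 1.45 from either source, with densities of 0.386 and 0.199 and 5 pathway genes. With a fold enrichment of at least 4 (849) 0 drivers held a summit, against 1.09 and 1.03, with densities of 0.197 and 0.199 and 4 pathway genes. With q under 0.05 (134) 0 drivers held one, against 0.0852 and 0.215, with densities of 0 and 0 and 1 pathway gene. In the upper part of the list by q (4521) 2 oncogenes and 0 suppressor genes held 2 summits, against 5.99 and 5.50, with densities of 1.36 and 0.992 and 22 pathway genes. The lists were shorter under these limits, and the values from genes of similar length fell with them. In the upper part by q the driver summits fell further, from 8 to 2, where genes of similar length went from 12.1 to 5.99. What part the list length has in the lower counts was not tested. The values under the other settings (79 in all, over the distance, peak overlap, high background, merging, segment, length tolerance, role classes and gene model) stayed within 1.5 times of those reported. Some of these could not change, as segment densities do not depend on the distance from the gene or on peak overlap. Under the strength limits 6 more values stayed within 1.5 times. Of these, 5 were the count of 0 drivers with q under 0.05, which a shorter list cannot raise. Of single genes, KMT2D had 0 summits in the gene body alone and BRCA1 had 0 when ended at its lower start. The gene model of BRCA1 and a match on both length and density were added after seeing the data.

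Read depth was not given, most summits rest on 4 to 6 fragments, and there is 1 library, so there was no replicate to leave out and intervals cover counting error only. No paired analysis was possible because a single precipitate has a peak list here and the input library has no values of its own.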
